A study of Mus musculus with 52 samples.

Results

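The genes described here are 31 genes of B cell identity and of the B cell receptor: the receptor chains Cd79a and Cd79b, surface coreceptors and markers such as Ms4a1 (CD20), Cr2 (CD21) and Fcer2a (CD23), signalling proteins such as Btk and Blnk, receptors for survival factors and homing, and transcription factors such as Pax5 and Ebf1. They were taken by symbol from the deposited gene table, and all 31 were found, of 57010 genes. RNA was sequenced from mice carrying human CD40 (hCD40tg) and tumors of MC38-CEACAM5, a mouse colon carcinoma line made to express the human tumor antigen CEACAM5. All animals share that transgene and that tumor, and they were given ATOR-4066, which binds both CD40 and CEACAM5, CD40 mAb, an antibody to CD40 alone, or vehicle. The materials were blood, lymph node, whole tumor, and cells sorted from tumors as CD45+Ly6G-, that is leukocytes without neutrophils. No source used here gives the promoter that drives the transgene, the doses, the times or the ages, or says whether the mice keep their own CD40.

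Of 52 libraries, 50 were used. Blood gave 4 libraries of ATOR-4066 animals, 5 of CD40 mAb and 5 of vehicle, lymph node 5, 4 and 4, whole tumor 4, 5 and 4, and sorted cells 3, 3 and 4, in the same order of treatments. The library labelled lymph node vehicle 3 was left out by the rule that defines this report, which names its title. Its 31 genes summed to 346 counts per M counts (CPM, where M is 1e+06), and the other 4 vehicle nodes had 5164 to 8225 CPM. The library labelled tumor ATOR-4066 3 was left out by the same rule. Its 31 genes summed to 6711 CPM, where the other 4 tumors of that treatment had 262 to 683 CPM. Cd79a was at 0.566 CPM in the left-out lymph node library and at 744 CPM in the left-out tumor library, so the B cell genes of both go against the material named in their labels. These sums were scaled with the left-out libraries in place, all later values without them. Total counts ranged from 33.5 to 44.1 M in blood and from 30.2 to 138.5 M in the other materials. In blood, haemoglobin genes took 78.1 to 88.2% of counts with ATOR-4066, 77.5 to 81.2% with CD40 mAb and 69.8 to 76.0% with vehicle. Levels are CPM scaled within each material by the TMM method, which assumes that most genes do not change. Replicate numbers were read from the titles. No label says that they are separate animals, so p-values measure only the spread between these libraries.

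B cells recognise antigen through a membrane immunoglobulin that signals through the CD79 pair, the kinases Blk and Btk and the adaptor Blnk, tuned by coreceptors that enhance the signal, such as Cr2, or dampen it, such as Cd22, Cd72 and Siglecg. Pax5 and Ebf1 set and hold the B cell programme, and Pou2f2 with its coactivator Pou2af1 acts at octamer sites of B cell promoters. CD40 is itself a receptor of B cells, which receive its signal from helper T cells, and macrophages and dendritic cells carry it as well. In bulk RNA, fewer B cells and less RNA of these genes per B cell cannot be told apart.

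Across vehicle animals, the CPM level of this RNA was highest in lymph node. The 31 genes summed to 5175 to 8414 CPM in vehicle lymph nodes, 664 to 790.0 CPM in vehicle blood, 824 to 1207 CPM in vehicle sorted cells and 399 to 669 CPM in vehicle tumors. The order of materials depends on the haemoglobin genes, which take most counts of blood. As an unscaled share of counts outside them, the 31 genes took 0.521 to 0.862% in vehicle lymph nodes and 0.495 to 0.638% in vehicle blood. That share was 0.0835 to 0.122% in vehicle sorted cells and 0.0409 to 0.0690% in vehicle tumors. Per kilobase of exon, Cd79a led in lymph node with 567 ± 93.4 CPM per kb (SD, n = 4), followed by Ly6d, a surface marker of early B lineage cells, and Cd79b at 358 ± 49.9 and 353 ± 63.4 CPM per kb, which differ by less than their SD. Blood had the same leading gene, with Cd79a at 53.1 ± 5.82 CPM per kb (SD, n = 5).

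**Figure D1:**
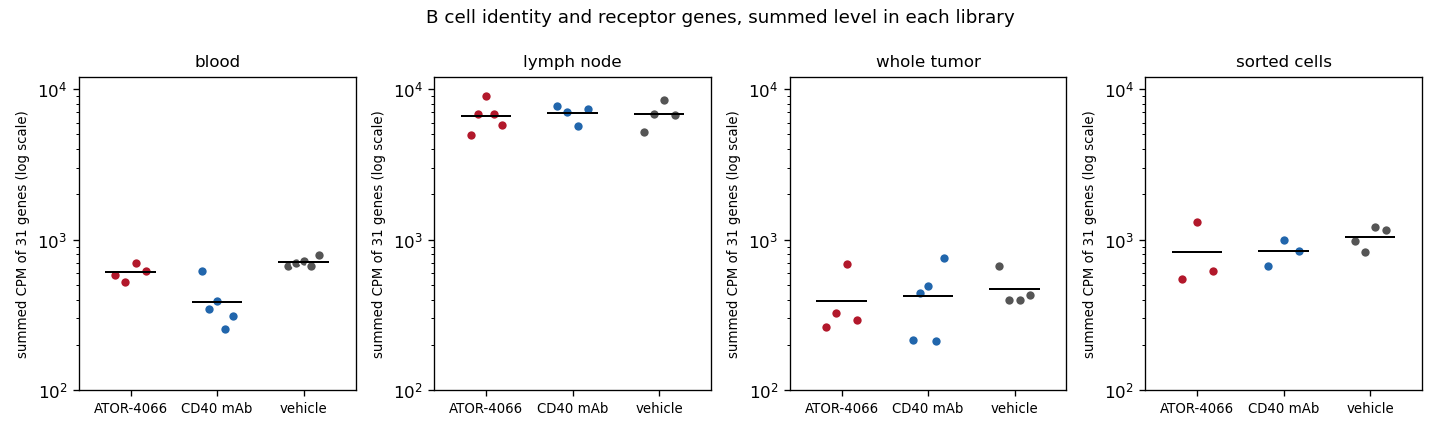
Summed CPM of the 31 genes (log axis) in each library of blood, lymph node, whole tumor and sorted cells, by treatment; each point is a library and the bar is the group mean. Lymph node libraries lie between 4964 and 8947 CPM in all treatments, while in blood 4 of 5 CD40 mAb libraries lie below every vehicle and ATOR-4066 library.

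In the tumor-derived libraries the genes split. In vehicle sorted cells, 21 of the 31 genes were under 10% of their vehicle lymph node level, among them Cr2 at 0.120%, Ms4a1 at 0.210%, Cd79a at 0.319% and Pax5 at 0.389%. Another 4 genes were at 50% or more of it: Cd72, an inhibitory lectin, at 324%, Cd180, a Toll-like receptor relative, at 149.8%, Pou2f2 at 96.6% and Btk at 87.7%. The remaining 6 lay between, from Siglecg at 14.3% to Cd37, a tetraspanin, at 43.9998%. These 4 genes were thus high in libraries where Cr2, Ms4a1, Cd79a and Pax5 were near 0, and all 4 are also known from myeloid cells. In the order above they averaged 330, 168, 130 and 72.5 CPM in vehicle sorted cells, a large part of the summed level. The sum of the 31 genes in tumor-derived libraries therefore does not follow B cells alone. In whole tumor Ebf1, which stromal cells also use, stood at 44.04% of its lymph node level, but in sorted cells at 0.990%. In vehicle blood, by contrast, the 31 genes kept to a band of 6.46% (Blnk) to 26.9% (Siglecg) of their lymph node level. Libraries were scaled separately in each material, so these percentages describe levels and carry no test. The blood levels are per count of all genes, with haemoglobin genes (69.8 to 76.0% of vehicle blood counts) included.

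**Figure D2:**
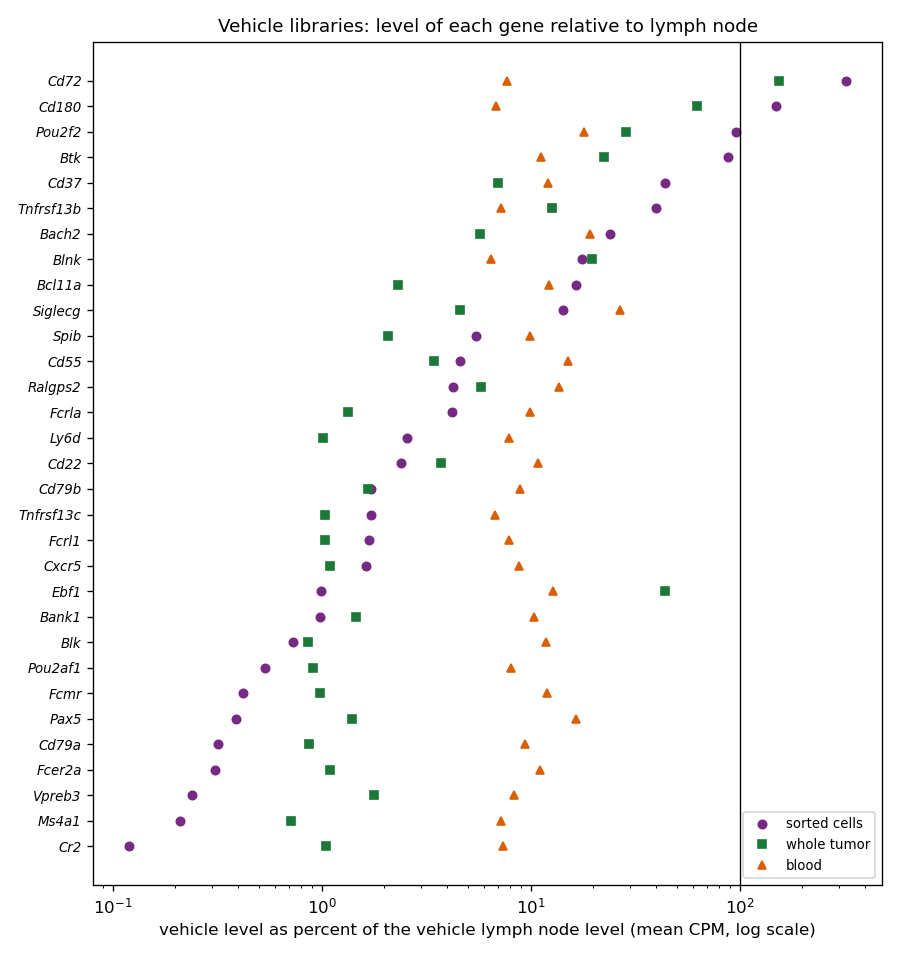
Mean CPM of each of the 31 genes in vehicle sorted cells, whole tumor and blood as a percent of its mean CPM in vehicle lymph node (log axis; the vertical line marks 100%). Blood points keep to a band of 6.46% to 26.9%, whereas sorted cells run from 0.120% for Cr2 to 324% for Cd72. The blood levels are per count of all genes, haemoglobin genes included.

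The promoters of these genes are shown where they hold a full match to a motif of the transcription factors that are members themselves or their close relatives. The octamer ATGCAAAT is the site of Pou2f2 with Pou2af1. The Ebf1 motif is TCCC, any 2 bases, then GGGA. The letters GAGGAAGT are a site of PU.1, whose relative is Spib. RefSeq promoter windows of mouse build GRCm38.p6, from 250 bases before to 50 bases after the start, were at hand for 26 of the 31 genes (32 windows, since a gene can have several starts), and both strands were read. The octamer was in 2 of the 32 windows against 1.74% of all 32851, the Ebf1 motif in 1 against 0.904%, and the PU.1 motif in 3 against 3.20%. A match is a description and not a binding site. The 6 windows with a match are printed here as the 150 bases before the start, 5′ to 3′ on the strand of the gene, with the match in capitals (the Ebf1 motif in Cd22, the PU.1 motif read on the other strand in Fcrl1, Cd37 and Cd72, and the octamer read on the other strand in Blnk and Vpreb3).
Cd22 (chr7:30879029-30879178, minus strand): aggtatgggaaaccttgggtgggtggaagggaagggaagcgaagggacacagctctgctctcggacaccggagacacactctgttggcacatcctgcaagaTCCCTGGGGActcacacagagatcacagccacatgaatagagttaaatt
Fcrl1 (chr3:87376237-87376386, plus strand): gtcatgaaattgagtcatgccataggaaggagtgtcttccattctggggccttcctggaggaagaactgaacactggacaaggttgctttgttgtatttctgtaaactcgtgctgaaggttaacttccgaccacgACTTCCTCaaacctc
Cd37 (chr7:45238840-45238989, minus strand): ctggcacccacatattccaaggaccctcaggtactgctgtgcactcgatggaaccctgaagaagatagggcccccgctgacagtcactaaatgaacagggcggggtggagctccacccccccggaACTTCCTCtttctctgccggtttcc
Cd72 (chr4:43454627-43454776, minus strand): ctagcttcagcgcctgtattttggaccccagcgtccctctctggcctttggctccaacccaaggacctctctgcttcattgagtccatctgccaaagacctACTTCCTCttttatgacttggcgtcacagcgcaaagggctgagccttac
Blnk (chr19:40994222-40994371, minus strand): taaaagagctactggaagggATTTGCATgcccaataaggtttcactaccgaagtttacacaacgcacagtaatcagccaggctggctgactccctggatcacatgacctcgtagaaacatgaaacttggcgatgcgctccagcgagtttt
Vpreb3 (chr10:75948150-75948299, plus strand): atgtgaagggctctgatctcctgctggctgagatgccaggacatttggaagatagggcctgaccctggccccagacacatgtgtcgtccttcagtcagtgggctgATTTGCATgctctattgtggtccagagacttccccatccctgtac

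In blood the whole set was lower with CD40 mAb. All 31 genes fell with CD40 mAb relative to vehicle (edgeR quasi-likelihood test, adjusted p under 0.05 over 12184 genes), where 12.4% of all genes tested fell and 22.2% rose, a balance that turned under other scalings (values with the scaling factors further on). The median log2 change of the 31 genes was -0.85, against -0.05 for all genes, and the changes ran from -1.42 for Fcer2a to -0.37 for Btk. For ATOR-4066 against vehicle 0 of 31 genes passed, where 0.435% of all genes did; the median was -0.23, 1 gene (Cd55) had an unadjusted p under 0.05, and DESeq2 called 0 and voom 1. ATOR-4066 blood was higher than CD40 mAb blood in 11 of 31 genes (Spib, Cd180, Blnk, Cd79b, Tnfrsf13b, Ly6d, Pax5, Fcer2a, Cd37, Ralgps2 and Cd22), where 2.31% of all genes were, with a median of 0.66 for the 31. The comparisons share their groups, so their values are given side by side and not as separate evidence.

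Cd79a, the signalling chain of the receptor (ENSMUSG00000003379, chr7:24897381-24902197, plus strand of GRCm38), had 58.2, 59.0, 78.1 and 67.0 CPM in ATOR-4066 blood and 69.3, 37.2, 36.4, 28.2 and 30.01 CPM in CD40 mAb blood. In vehicle blood, Cd79a had 70.1, 85.6, 77.1, 67.9 and 86.2 CPM. CD40 mAb library 1, the first of its group, lay inside the vehicle range while the other 4 lay below every other blood library. With CD40 mAb Cd79a averaged 40.2 ± 16.7 CPM and with vehicle 77.4 ± 8.48 CPM (SD, n = 5 each; log2 change -0.94, SE 0.22, edgeR adjusted p = 0.00397). Ms4a1, the CD20 tetraspan protein (ENSMUSG00000024673, chr19:11249675-11266241, minus strand), had 34.8, 30.2, 37.0 and 38.6 CPM in ATOR-4066 blood and 35.9, 22.6, 25.1, 14.9 and 13.8 CPM in CD40 mAb blood. In vehicle blood, Ms4a1 had 38.6, 44.03, 40.6, 38.7 and 47.04 CPM. All 5 CD40 mAb libraries lay below all 5 vehicle libraries, but library 1 lay within the ATOR-4066 range (log2 change -0.89, SE 0.21, edgeR adjusted p = 0.00433).

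Cr2, the complement receptor CD21 of mature and follicular B cells (ENSMUSG00000026616, chr1:195136811-195176716, minus strand), had 11.8, 9.44, 16.1 and 11.4 CPM in ATOR-4066 blood and 14.0, 5.14, 6.54, 4.63 and 4.97 CPM in CD40 mAb blood. In vehicle blood, Cr2 had 14.9, 13.6, 15.9, 16.8 and 17.2 CPM. Its CD40 mAb values rested on 56 to 459 counts, and again 4 of the 5 CD40 mAb libraries were below all others (log2 change -1.13, SE 0.26, edgeR adjusted p = 0.00361). Fcer2a, the low-affinity IgE receptor CD23 of mature follicular B cells (ENSMUSG00000005540, chr8:3681737-3694175, minus strand), showed the lowest fitted change of the 31. It had 25.0, 22.8, 31.6 and 22.1 CPM in ATOR-4066 blood and 26.5, 8.37, 12.04, 6.54 and 8.89 CPM in CD40 mAb blood. In vehicle blood, Fcer2a had 32.4, 33.7, 32.8, 31.9 and 37.3 CPM. The CD40 mAb and vehicle groups did not overlap (log2 change -1.42, SE 0.29, edgeR adjusted p = 0.00167), nor did ATOR-4066 and vehicle, although that difference did not pass (log2 change -0.40, SE 0.30, edgeR adjusted p = 0.564). ATOR-4066 was higher than CD40 mAb (log2 change 1.01, SE 0.30, edgeR adjusted p = 0.0372).

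**Figure D3:**
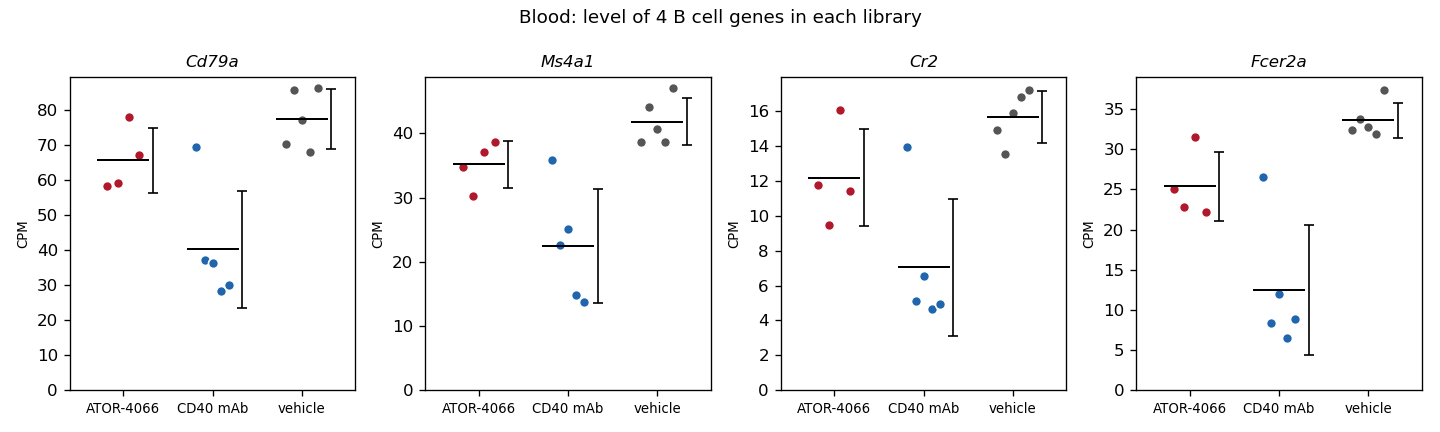
CPM of Cd79a, Ms4a1, Cr2 and Fcer2a in each blood library by treatment; points are libraries, horizontal bars group means and vertical bars ± 1 SD. In each gene CD40 mAb library 1 lies near the ATOR-4066 and vehicle values and the other 4 lie lower, for Fcer2a at 6.54 to 12.04 CPM.

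Among the other genes of the receptor complex and its coreceptors, Cd79b, the partner chain of Cd79a, had 40.4, 35.0, 42.1 and 39.3 CPM in ATOR-4066 blood and 37.1, 19.3, 23.5, 13.9 and 19.4 CPM in CD40 mAb blood. In vehicle blood, Cd79b had 42.9, 50.96, 44.8, 39.1 and 47.9 CPM. Its CD40 mAb and vehicle groups did not overlap (log2 change -0.99, SE 0.21, edgeR adjusted p = 0.00157). Fcmr, the Fc receptor for IgM, had 24.0, 25.3, 29.4 and 29.8 CPM in ATOR-4066 blood and 28.2, 14.8, 17.1, 9.76 and 12.01 CPM in CD40 mAb blood. In vehicle blood, Fcmr had 31.6, 41.5, 32.1, 33.3 and 37.1 CPM. Here too every CD40 mAb value was below every vehicle value (log2 change -1.09, SE 0.22, edgeR adjusted p = 0.00132). Cd180 had 8.37, 4.68, 7.35 and 5.42 CPM in ATOR-4066 blood and 4.20, 3.13, 4.72, 1.65 and 2.89 CPM in CD40 mAb blood. In vehicle blood, Cd180 had 8.50, 9.30, 6.36, 8.25 and 6.10 CPM. In Cd180 library 1 did not stand apart, and all 5 CD40 mAb libraries were below the vehicle range (log2 change -1.18, SE 0.23, edgeR adjusted p = 0.00093). The smallest fall in this group was that of Fcrl1, an Fc receptor-like activating protein, with 6.17 ± 1.86 CPM under CD40 mAb and 8.80 ± 1.17 CPM under vehicle (SD, n = 5 each), groups that overlapped (log2 change -0.50, SE 0.17, edgeR adjusted p = 0.0298).

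Of the receptor signalling proteins all 5 fell, by a median log2 change of -0.74. Blnk, the adaptor that links the receptor kinases to phospholipase, had 6.82, 6.97, 9.42 and 7.08 CPM in ATOR-4066 blood and 6.78, 4.19, 4.91, 4.22 and 4.69 CPM in CD40 mAb blood. In vehicle blood, Blnk had 7.23, 7.98, 8.75, 7.83 and 9.99 CPM. CD40 mAb values were below all vehicle values (log2 change -0.74, SE 0.15, edgeR adjusted p = 0.00113) and below all ATOR-4066 values (log2 change 0.60, SE 0.16, edgeR adjusted p = 0.0167). Btk, the kinase downstream of the receptor that myeloid cells also express, changed least of the 31, with 9.23, 7.20, 7.86 and 8.83 CPM in ATOR-4066 blood and 8.27, 7.26, 8.36, 5.63 and 6.17 CPM in CD40 mAb blood. In vehicle blood, Btk had 8.81, 9.13, 9.01, 9.51 and 9.95 CPM (log2 change -0.37, SE 0.12, edgeR adjusted p = 0.0238). The highest CD40 mAb value was still below the lowest vehicle value.

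The survival and homing receptors fell likewise. Tnfrsf13b (TACI), a receptor for BAFF and APRIL, had 7.45, 7.65, 7.45 and 5.57 CPM in ATOR-4066 blood and 7.09, 3.23, 4.04, 2.65 and 3.22 CPM in CD40 mAb blood. In vehicle blood, Tnfrsf13b had 9.83, 8.997, 8.55, 8.33 and 8.77 CPM. Its p was the smallest of the 31 (log2 change -1.10, SE 0.20, edgeR adjusted p = 0.00061). CD40 mAb library 1 was nearest to the vehicle range, without entering it. Tnfrsf13c, the BAFF receptor, averaged 5.70 ± 2.37 CPM with CD40 mAb and 10.2 ± 1.63 CPM with vehicle, and Cxcr5, the follicle homing receptor, 8.02 ± 3.76 CPM with CD40 mAb and 14.1 ± 1.83 CPM with vehicle (SD, n = 5 each). The groups overlapped in both genes, whose log2 changes were -0.81 (edgeR adjusted p = 0.0124) and -0.80 (edgeR adjusted p = 0.0119).

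All 7 transcription factors fell as well, by a median of -0.88. Pax5 had 38.2, 33.1, 44.9 and 42.8 CPM in ATOR-4066 blood and 38.3, 19.9, 25.2, 16.2 and 17.2 CPM in CD40 mAb blood. In vehicle blood, Pax5 had 43.5, 38.9, 53.6, 48.8 and 54.6 CPM. CD40 mAb library 1 came close to the lowest vehicle value, and the other 4 were lower (log2 change -1.03, SE 0.21, edgeR adjusted p = 0.00156). Spib, an ETS-family factor of B cells and plasmacytoid dendritic cells, had 21.9, 20.7, 26.8 and 24.9 CPM in ATOR-4066 blood and 18.7, 16.4, 13.8, 8.94 and 11.6 CPM in CD40 mAb blood. In vehicle blood, Spib had 23.0, 27.5, 27.0, 23.1 and 27.6 CPM. Its CD40 mAb values lay below all vehicle values (log2 change -0.88, SE 0.17, edgeR adjusted p = 0.0009) and below all ATOR-4066 values (log2 change 0.76, SE 0.18, edgeR adjusted p = 0.00957). Bcl11a had the largest fall among the factors (log2 change -1.22, SE 0.28, edgeR adjusted p = 0.00360) and Pou2af1 the smallest (log2 change -0.53, SE 0.18, edgeR adjusted p = 0.0289). The CD40 mAb and vehicle groups did not overlap, CD40 mAb being lower, in 18 of the 31 genes, where 7.48% of all genes behaved so. For ATOR-4066 below vehicle this held in 6 of 31 (Cd55, Tnfrsf13b, Bank1, Fcmr, Fcer2a and Ralgps2), where it did in 4.78% of all genes.

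The other members are given as the mean with CD40 mAb and the mean with vehicle (SD, n = 5 each), with the fitted log2 change in parentheses. Among surface proteins, Cd22, an inhibitory lectin that binds sialic acid, had 23.4 ± 9.21 and 43.2 ± 4.79 CPM (-0.88), and its relative Siglecg 13.0 ± 6.46 and 22.4 ± 5.85 CPM (-0.77). Fcrla, an intracellular relative of Fc receptors, had 8.24 ± 3.49 and 14.1 ± 2.14 CPM (-0.76) and Vpreb3 0.909 ± 0.492 and 1.64 ± 0.196 CPM (-0.77). Cd37 had 26.2 ± 7.31 and 39.4 ± 5.41 CPM (-0.59), Cd72 5.29 ± 1.49 and 7.92 ± 0.937 CPM (-0.56) and Cd55, which protects cells from complement, 18.8 ± 7.47 and 29.8 ± 2.03 CPM (-0.66). These last 3 genes changed less than the median of the 31, and their groups overlapped. Among signalling proteins, Blk, a Src-family kinase, had 7.95 ± 2.92 and 14.5 ± 1.22 CPM (-0.85), Bank1, a B cell scaffold protein, 12.7 ± 5.01 and 21.4 ± 1.29 CPM (-0.74) and Ralgps2, an exchange factor of Ral proteins, 12.2 ± 4.11 and 21.5 ± 1.42 CPM (-0.80). Among transcription factors, Ebf1 had 4.50 ± 2.05 and 8.72 ± 0.561 CPM (-0.92), Pou2f2 13.1 ± 4.47 and 24.3 ± 1.43 CPM (-0.88) and Bach2, a repressor that holds off plasma cell fate, 9.84 ± 2.30 and 16.1 ± 1.58 CPM (-0.71). Ly6d had 11.4 ± 3.49 and 21.0 ± 2.91 CPM (-0.87).

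**Figure D4:**
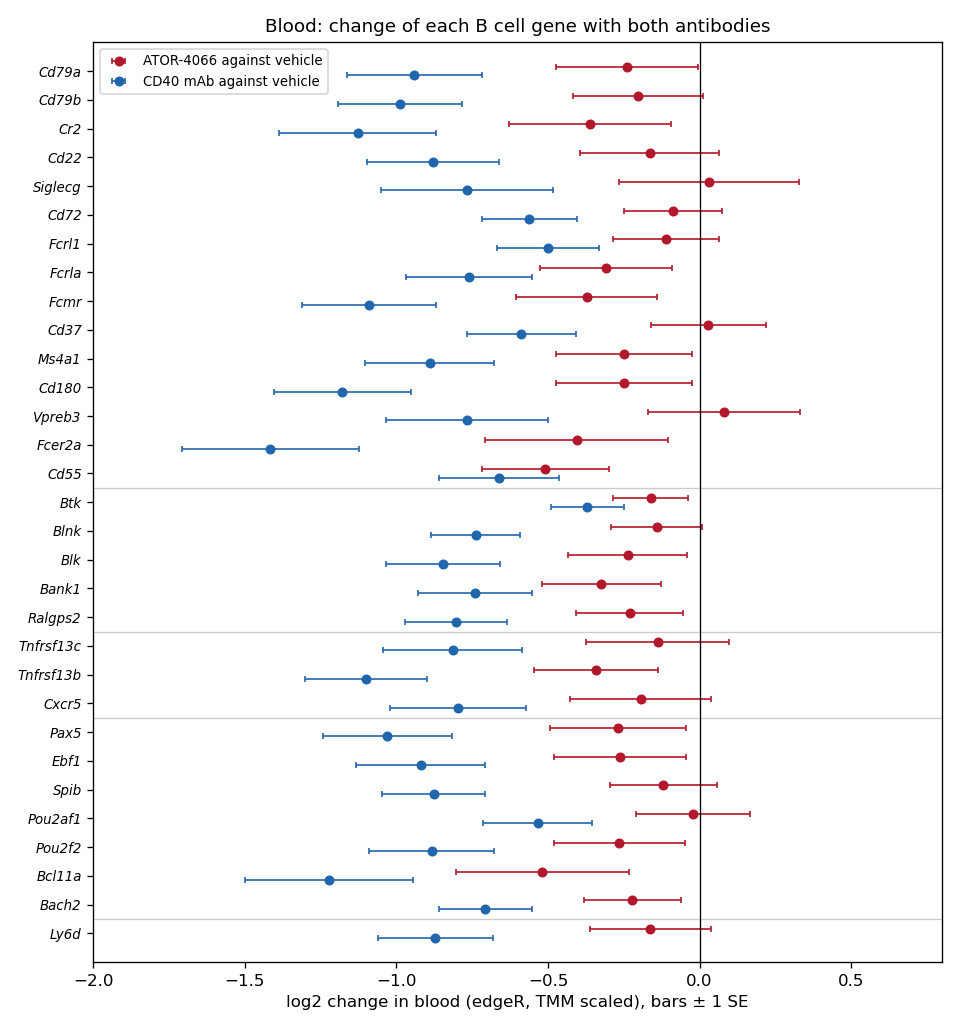
Fitted log2 change in blood of each of the 31 genes for ATOR-4066 against vehicle and CD40 mAb against vehicle (edgeR on TMM-scaled counts; bars ± 1 SE; grey lines separate receptor complex and coreceptors, signalling proteins, survival and homing receptors, transcription factors, and Ly6d). All 31 CD40 mAb changes lie below 0, from -1.42 to -0.37, while the ATOR-4066 changes lie between -0.52 and 0.08.

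The size of the fall in blood depends on how the libraries are scaled. The TMM factors themselves differed between treatments: 0.623 to 1.19 with ATOR-4066, 0.314 to 0.981 with CD40 mAb and 1.65 to 2.35 with vehicle. As an unscaled share of all counts outside the haemoglobin genes, the 31 genes took 0.266 to 0.484% with ATOR-4066, 0.0423 to 0.325% with CD40 mAb and 0.495 to 0.638% with vehicle. On that scale the median log2 change for CD40 mAb against vehicle was -2.09 for the 31 genes and -1.45 for all genes, a gap of -0.64, while with TMM the gap was -0.79. For ATOR-4066 against vehicle the unscaled medians were -0.61 for the 31 genes and -0.40 for all genes, and for ATOR-4066 against CD40 mAb 1.54 and 1.02. The count of genes called over the whole table moved with the scaling as well. For CD40 mAb against vehicle 2710 genes were higher and 1509 lower with TMM, 2342 higher and 2691 lower with upper-quartile factors, 2524 higher and 527 lower when scaled to T cell markers, and 499 higher and 9984 lower unscaled, so the share that 31 of 31 is set against depends on the scale. For ATOR-4066 against CD40 mAb 281 were higher and 1312 lower with TMM, 545 and 1167 with upper-quartile factors, 75 and 1258 with T cell markers, and 8693 and 367 unscaled. Scaled to the summed T cell markers, the median was -0.82 and 24 of 31 genes passed. All 31 changes were negative under TMM, RLE, upper-quartile, DESeq2, T cell and unscaled settings. Without the CD40 mAb library 1, all 31 genes passed and the median was -1.07. Leaving out another library of the comparison left 26 to 30 of the 31 called. Across all settings tried, 24 of the 31 genes were called every time. Of the exceptions, Siglecg kept its call in only 7 of 20 alternatives. Fcrl1, Pou2af1 and Vpreb3 kept it in 13, Btk in 16, and Cd37 and Cd72 in 19. Of the 11 genes higher in ATOR-4066 than in CD40 mAb blood, 0 were called in every setting. A fit with a replicate block, 1 of these settings, called only 2 of all genes there. The 11 genes kept their call in 8 (Fcer2a and Ralgps2) to 17 (Spib) of 19 alternatives.

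Markers of other cells moved in the same blood libraries. With CD40 mAb relative to vehicle, 11 of 11 neutrophil markers tested, 8 of 8 erythroid markers and 6 of 7 platelet markers rose. Neutrophil markers summed to 148 to 371 CPM with ATOR-4066, 221 to 1107 CPM with CD40 mAb and 111 to 232 CPM with vehicle. T cell markers summed to 146 to 166 CPM, 134 to 176 CPM and 133 to 197 CPM in the same order of treatments, and 1 of 18 rose and 0 fell with CD40 mAb, with a median log2 change of -0.09. The part of the neutrophil, erythroid and platelet RNA in the fall of the B cell genes was not tested.

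Other genes of the pathway went the same way only in part. Of 20 further genes of receptor signalling, 11 fell and 1 (Cd81) rose with CD40 mAb against vehicle in blood (median log2 change -0.41). Those that fell included Swap70, which relays receptor signals to the cytoskeleton (log2 change -1.06, SE 0.19, adjusted p = 0.0005), Fcgr2b, the inhibitory Fc receptor (log2 change -0.76, SE 0.15, adjusted p = 0.00140), and Lat2, an adaptor (log2 change -0.52, SE 0.12, adjusted p = 0.00406), all by the edgeR test. Of 6 immunoglobulin heavy constant genes tested, Ighd and Ighm, the isotypes of naive B cells, fell. Ighd averaged 38.7 CPM with CD40 mAb and 77.6 CPM with vehicle (log2 change -1.001, SE 0.22, adjusted p = 0.00250), and Ighm 109 CPM and 214 CPM in the same order (log2 change -0.96, SE 0.23, adjusted p = 0.00414). Among genes that CD40 signals induce in B cells, 4 of 19 tested rose (Cd80, Pim1, Slamf1 and Cd44), a share near the 22.2% of all genes that rose, and 1 fell; Pim1, a kinase that other blood cells also express (log2 change 1.93, SE 0.30, adjusted p = 0.00019), and Cd80, a costimulatory ligand (log2 change 1.34, SE 0.26, adjusted p = 0.00106), rose, and Icosl, the ligand of ICOS (log2 change -0.86, SE 0.17, adjusted p = 0.00110), fell. Of 9 survival genes tested 1 rose (Bcl2l1) and 1 fell (Traf3), of 9 positioning receptors and regulators 2 fell (Klf2 and Gpr183), and of 8 plasma cell genes 2 rose (Ell2 and Xbp1) and 2 fell (Irf4 and Sdc1), beside the 22.2% of all genes that rose and the 12.4% that fell.

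To see how the genes moved relative to each other, the blood libraries were also scaled to the summed counts of 4 defining B cell genes, Cd79a, Cd79b, Ms4a1 and Pax5, which leaves 27 genes to test. On that scale 4 of the 27 were higher and 1 lower with CD40 mAb than with vehicle, while 80.2% and 0.164% of all genes were. Btk was higher against the anchor by a log2 change of 0.66, SE 0.19, adjusted p = 0.00440, Fcrl1 by 0.50, SE 0.18, adjusted p = 0.0164, Cd72 by 0.42, SE 0.16, adjusted p = 0.0241 and Pou2af1 by 0.47, SE 0.19, adjusted p = 0.0359. Fcer2a was lower, with a log2 change of -0.55, SE 0.21, adjusted p = 0.0228 (all edgeR). For ATOR-4066 against CD40 mAb, 0 were higher, where 0.123% of all genes were, and 2 were lower, where 61.7% were: Btk (-0.58, SE 0.20, adjusted p = 0.0215) and Cd55 (-0.58, SE 0.21, adjusted p = 0.0273). For ATOR-4066 against vehicle 0 of 27 passed by edgeR, with 0 at an unadjusted p under 0.05, as did 0% of all genes.

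These counts rest on few libraries. With the library in parentheses left out, the 5 genes of CD40 mAb against vehicle became 8 (CD40 mAb 1), 3 (CD40 mAb 2) and 3 (vehicle 2). Of all genes, these fits called 10416, 9309 and 9241, against 9796. The 2 genes of ATOR-4066 against CD40 mAb became 5 (CD40 mAb 1), 1 (CD40 mAb 4), 1 (ATOR-4066 3), 0 (ATOR-4066 4) and 0 (ATOR-4066 5). These fits called 9397, 5560, 7237, 4655 and 5385 of all genes, against 7527. On the TMM scale, the 11 genes higher in ATOR-4066 than in CD40 mAb blood became 30 (CD40 mAb 1), 3 (CD40 mAb 2), 7 (CD40 mAb 3), 4 (CD40 mAb 4), 3 (CD40 mAb 5), 5 (ATOR-4066 1), 1 (ATOR-4066 4) and 4 (ATOR-4066 5). In the same order 3026, 1182, 1524, 1167, 1270, 1402, 914 and 1003 of all genes were called in either direction, against 1593. All 31 changes of ATOR-4066 against CD40 mAb were positive in the main fit, from 0.15 for Cd55 to 1.01 for Fcer2a.

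In lymph node, where B cells are a main population, no gene of the set passed. By edgeR the count was 0 of 31 in each of the 3 comparisons, in which 0%, 0.0643% and 0.0161% of 18671 genes passed (in the order ATOR-4066 to vehicle, CD40 mAb to vehicle and ATOR-4066 to CD40 mAb). At an unadjusted p under 0.05 the counts were 0, 3 and 1, and DESeq2 called 0, 0 and 0 and voom 0, 0 and 0. Median log2 changes of the 31 genes were -0.03, 0.02 and -0.08, beside -0.01, -0.02 and 0.01 for all genes. Cd79a had 611, 783, 1024, 789 and 669 CPM in ATOR-4066 lymph nodes and 999, 774, 604 and 799.6 CPM in CD40 mAb lymph nodes. In vehicle lymph nodes, Cd79a had 679, 815, 1008 and 802 CPM. The groups overlapped, and the fitted log2 change was -0.09 (95% interval -0.46 to 0.27) for ATOR-4066 and -0.06 (95% interval -0.44 to 0.33) for CD40 mAb, both against vehicle.

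Ms4a1 had 361, 527, 735, 552 and 508 CPM in ATOR-4066 lymph nodes and 662, 582, 467 and 636 CPM in CD40 mAb lymph nodes. In vehicle lymph nodes, Ms4a1 had 452, 551, 746 and 564 CPM. For Ms4a1 the log2 change against vehicle was -0.11 (95% interval -0.51 to 0.30) for ATOR-4066 and 0.02 (95% interval -0.41 to 0.45) for CD40 mAb. Cr2 had 108, 154, 242, 182 and 159 CPM in ATOR-4066 lymph nodes and 179, 174, 147 and 260.4 CPM in CD40 mAb lymph nodes. In vehicle lymph nodes, Cr2 had 137, 197, 305 and 209 CPM. For Cr2 it was -0.33 (95% interval -0.88 to 0.23) and -0.16 (95% interval -0.74 to 0.43) in the same order. All groups overlapped in both genes. Fcer2a had 216, 215, 401, 332 and 240.1 CPM in ATOR-4066 lymph nodes and 211, 206, 184 and 346 CPM in CD40 mAb lymph nodes. In vehicle lymph nodes, Fcer2a had 234, 276, 377 and 325 CPM. Among CD40 mAb nodes 3 of 4 lay below every vehicle node and node 5 lay inside the vehicle range, and the change did not pass: the log2 change was -0.36 (95% interval -0.89 to 0.18) for CD40 mAb and -0.11 (95% interval -0.62 to 0.40) for ATOR-4066.

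The 3 genes of smallest p are given as values. For CD40 mAb against vehicle, Blnk had 209.5, 203, 166 and 176 CPM in CD40 mAb lymph nodes, against 93.2, 151, 152 and 121 CPM in vehicle lymph nodes, groups that did not overlap (log2 change 0.54, SE 0.20, edgeR adjusted p = 0.135). Pou2af1, whose level is also high in germinal center and plasma cells, had 420.2, 513, 365 and 364 CPM in CD40 mAb lymph nodes, against 165, 334, 341 and 285 CPM in vehicle lymph nodes, likewise apart (log2 change 0.56, SE 0.25, edgeR adjusted p = 0.194). CD40 mAb being higher without overlap in 2 of 31 genes compares with 8.27% of all genes. Vpreb3, a protein of B cell precursors, had 16.9, 11.2, 10.1 and 13.7 CPM in CD40 mAb lymph nodes, against 15.2, 19.7, 25.4 and 19.0 CPM in vehicle lymph nodes (log2 change -0.61, SE 0.22, edgeR adjusted p = 0.140). For ATOR-4066 against vehicle the 3 genes were Cd55, Pou2af1 and Cd180, with log2 changes of -0.31 (95% interval -0.65 to 0.04), 0.44 (95% interval -0.07 to 0.95) and -0.33 (95% interval -0.74 to 0.07). For ATOR-4066 against CD40 mAb they were Ly6d, Vpreb3 and Fcrl1, with -0.33 (95% interval -0.66 to -0.01), 0.38 (95% interval -0.08 to 0.84) and -0.25 (95% interval -0.63 to 0.14). Against the 4 anchor genes 0 of 27 passed by edgeR in each of the 3 lymph node comparisons, with 2, 4 and 1 at an unadjusted p under 0.05 in the same order as above. In lymph node, 0% of all genes were higher and 0% lower on that scale for ATOR-4066 against vehicle. The shares were 0.00536% and 0.0107% for CD40 mAb against vehicle, and 0.00536% and 0.0107% for ATOR-4066 against CD40 mAb.

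By limma, the CD40 mAb effect itself differed between blood and lymph node in part of the set, a count that fell under other fits. In a fit over blood, lymph node and tumor with the number in the title, taken as the animal, as a block (limma voomLmFit, 11800 genes), 15 of 31 genes had a lower CD40 mAb effect in blood than in lymph node, where 10.2% of all genes did and 15.8% had a higher one. The difference of log2 changes was -1.25, SE 0.29, adjusted p = 0.00145 for Blnk, -1.47, SE 0.35, adjusted p = 0.00221 for Bcl11a, -1.25, SE 0.34, adjusted p = 0.00602 for Tnfrsf13b, -0.83, SE 0.25, adjusted p = 0.0138 for Ebf1 and -1.14, SE 0.36, adjusted p = 0.0176 for Pax5. For Cd79a it was -0.88, SE 0.41, adjusted p = 0.108, and for Ms4a1 -0.89, SE 0.40, adjusted p = 0.102, which do not pass. Blood against whole tumor gave a lower effect in 2 genes, Cd37 (-1.28, SE 0.40, adjusted p = 0.0333) and Blnk (-1.03, SE 0.35, adjusted p = 0.0491), where 3.47% of all genes did. Whole tumor against lymph node gave 0 (limma; 1 at an unadjusted p under 0.05, 0 by edgeR), where 3.72% of all genes were lower and 1.86% higher. The ATOR-4066 effect differed between materials in 0 genes for each of the 3 pairs by limma. Of all genes, 0.466% had a lower and 2.07% a higher effect in blood than in lymph node, 5.38% and 6.04% in tumor than in lymph node, and 0.805% and 0.492% in blood than in tumor. At an unadjusted p under 0.05 there were 0, 2 and 2 in the same order, and edgeR called 0, 0 and 1. Fitted with edgeR and no block, the blood against lymph node count for CD40 mAb was 3 and with the 2 left-out libraries kept in it was 2, against 15. Of all genes, these 2 fits called 2864 and 2230 in either direction, against 3061 in the main fit.

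In sorted CD45+Ly6G- cells Cd79a, Ms4a1 and Pax5 were at a few CPM or less in all but 1 library, and Cd79b was at 6.68 to 9.58 CPM in those same 9 libraries. Relative to vehicle, Ms4a1, Pax5 and Fcmr were called higher and Cd72 and Pou2f2 lower with ATOR-4066 (edgeR, 16667 genes). Vpreb3 was too low to test. These 5 of 30 genes, 10% higher and 6.67% lower, are near the shares of all genes, of which 6.76% rose and 5.11% fell. The 3 higher calls did not hold without ATOR-4066 library 9 (values below). With CD40 mAb 0 of 30 passed by edgeR, where 1.09% of all genes did; 3 had an unadjusted p under 0.05, DESeq2 called 1 and voom 1. Between the antibodies Btk was lower with ATOR-4066, 1 of 30, where 2.96% of all genes were lower and 5.27% higher.

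Cd79a had 4.46, 109.5 and 3.75 CPM in ATOR-4066 sorted cells and 4.84, 0.664 and 0.290 CPM in CD40 mAb sorted cells. In vehicle cells, Cd79a had 3.44, 2.97, 1.48 and 2.63 CPM. The 109.5 CPM belong to ATOR-4066 library 9, and the other 9 sorted libraries lay between 0.290 and 4.84 CPM. Ms4a1 had 2.24, 42.9 and 2.11 CPM in ATOR-4066 sorted cells and 2.55, 0.970 and 0.580 CPM in CD40 mAb sorted cells. In vehicle cells, Ms4a1 had 1.35, 1.11, 0.694 and 1.69 CPM (log2 change 3.70, SE 1.02, edgeR adjusted p = 0.0441). The same library held the highest value of Ms4a1. Cr2 had 1.21, 31.1 and 0 CPM in ATOR-4066 sorted cells and 0, 0 and 0 CPM in CD40 mAb sorted cells. In vehicle cells, Cr2 had 0.655, 0, 0.208 and 0.156 CPM. It was at 0 in 5 libraries, among them all 3 of CD40 mAb, so no fold is given. Fcer2a had 0.567, 37.6 and 0.185 CPM in ATOR-4066 sorted cells and 0.458, 0.0255 and 0.232 CPM in CD40 mAb sorted cells. In vehicle cells, Fcer2a had 1.56, 0.555, 0.949 and 0.679 CPM. ATOR-4066 library 9 was again apart from all others. Pax5 had 2.56, 77.3 and 1.37 CPM in ATOR-4066 sorted cells and 1.73, 1.28 and 0.580 CPM in CD40 mAb sorted cells. In vehicle cells, Pax5 had 1.46, 0.751, 0.879 and 1.41 CPM (log2 change 4.58, SE 1.19, edgeR adjusted p = 0.0361). Again library 9 held the high value. Fcmr had 1.90, 64.1 and 2.43 CPM in ATOR-4066 sorted cells and 0.843, 0.919 and 0.667 CPM in CD40 mAb sorted cells. In vehicle cells, Fcmr had 2.05, 1.66, 0.347 and 0.859 CPM (log2 change 4.21, SE 1.14, edgeR adjusted p = 0.0412). In each of these genes ATOR-4066 library 9 stood far above the rest, and the other ATOR-4066 libraries were at most a few CPM. Of the 31 genes, 24 were highest of the 10 sorted libraries in that library, and 4 (Cd72, Btk, Tnfrsf13b and Cd180) were lowest there. T cell markers were also highest in it, at 7221 CPM summed against 523 to 4341 CPM in the other 9, and macrophage and monocyte markers lowest, at 2802 CPM against 9603 to 28504 CPM. Whether that library differs in cell make-up or in expression cannot be told apart.

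Without ATOR-4066 9, 1 gene (Pou2f2) passed for ATOR-4066 against vehicle, and the median log2 change of the genes was -0.15 instead of 1.22. With the library in parentheses left out, the 5 genes became 14 (ATOR-4066 10), 2 (vehicle 6), 2 (vehicle 7), 2 (vehicle 9) and 1 (vehicle 10). Of all genes, these fits called 2525, 931, 1881, 823 and 627 in the same order, and 1017 without ATOR-4066 9, against 1977. Without ATOR-4066 library 9 the log2 changes were 0.84 for Ms4a1 (adjusted p = 0.470), 0.80 for Pax5 (adjusted p = 0.464) and 0.81 for Fcmr (adjusted p = 0.515) by edgeR, and none of these 3 passed without any single vehicle library, with voom or with a replicate block. For ATOR-4066 against CD40 mAb the 1 gene became 13 (ATOR-4066 10), 2 (CD40 mAb 6), 0 (CD40 mAb 7) and 0 (CD40 mAb 10). These fits called 2422, 1019, 307 and 105 of all genes, against 1372. For CD40 mAb against vehicle there was 1 (CD40 mAb 7), where 272 of all genes were called, against 182.

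The genes that fell behaved otherwise. Pou2f2 had 43.7, 47.7 and 44.6 CPM in ATOR-4066 sorted cells and 39.6, 84.0 and 70.6 CPM in CD40 mAb sorted cells. In vehicle cells, Pou2f2 had 116, 104, 160.2 and 141 CPM. All 3 ATOR-4066 libraries lay below all 4 vehicle libraries (log2 change -1.52, SE 0.24, edgeR adjusted p = 0.0102), and the CD40 mAb libraries did too without passing (log2 change -1.01, SE 0.24, edgeR adjusted p = 0.0670). CD40 mAb was below vehicle without overlap in 4 of 30 genes of the set, where it was in 11.6% of all genes. For ATOR-4066 below vehicle this also held in 4 of 30, where it did in 14.1% of all genes. Leaving out any library of the comparison kept Pou2f2 called against vehicle. Cd72 had 41.4, 38.9 and 81.6 CPM in ATOR-4066 sorted cells and 67.6, 312 and 133 CPM in CD40 mAb sorted cells. In vehicle cells, Cd72 had 289, 175, 474 and 384 CPM. ATOR-4066 was again below vehicle in every library (log2 change -2.61, SE 0.55, edgeR adjusted p = 0.0187). Cd72 no longer passed without vehicle 10 (adjusted p = 0.0524), ATOR-4066 6 (0.0756) or ATOR-4066 9 (0.0694), nor without the low-count filter (0.0718), all by edgeR. Btk had 40.5, 16.5 and 51.3 CPM in ATOR-4066 sorted cells and 75.7, 74.7 and 115 CPM in CD40 mAb sorted cells. In vehicle cells, Btk had 66.6, 83.2, 70.3 and 69.7 CPM. All 3 ATOR-4066 libraries were below all 3 CD40 mAb libraries (log2 change -1.29, SE 0.34, edgeR adjusted p = 0.0483). ATOR-4066 was below CD40 mAb without overlap in 2 of 30 genes of the set, where it was in 13.6% of all genes. The call of Btk was kept in 6 of 13 alternatives, those with 1 library left out included. Btk was not called against vehicle. Pou2f2, Cd72 and Btk had vehicle levels in sorted cells close to or above those of lymph node while Cd79a was near 0. So had Cd180, which was not called in sorted cells. Cd180 had 81.9, 28.6 and 146 CPM in ATOR-4066 sorted cells, and 151, 109, 203 and 210 CPM in vehicle cells, groups that overlapped. In the same comparison macrophage and monocyte markers summed to 2802 to 10728 CPM with ATOR-4066, 16063 to 28504 CPM with CD40 mAb and 15019 to 17438 CPM with vehicle, and 4 of 13 fell and 0 rose against vehicle; their part in the fall of Pou2f2 and Cd72 was not tested. Of 20 further receptor signalling genes 5 fell and 0 rose; those that fell included Lat2 (log2 change -1.29, SE 0.23, adjusted p = 0.0115), the phosphatase Ptpn6 (log2 change -0.84, SE 0.16, adjusted p = 0.0132) and the phospholipase Plcg2 (log2 change -1.11, SE 0.27, adjusted p = 0.0282), 3 genes that myeloid cells also use, by the edgeR test. Among CD40-induced genes 8 of 20 rose and 1 fell (Icosl). Those that rose included the NF-kappaB inhibitor Nfkbia (log2 change 1.72, SE 0.19, adjusted p = 0.00329), Batf (log2 change 0.84, SE 0.14, adjusted p = 0.0102) and Cd80 (log2 change 1.03, SE 0.17, adjusted p = 0.0102), which myeloid and T cells use as well. Of all genes, 6.76% rose and 5.11% fell with ATOR-4066 against vehicle. These list counts include ATOR-4066 library 9, where T cell markers were highest and macrophage and monocyte markers lowest.

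**Figure D5:**
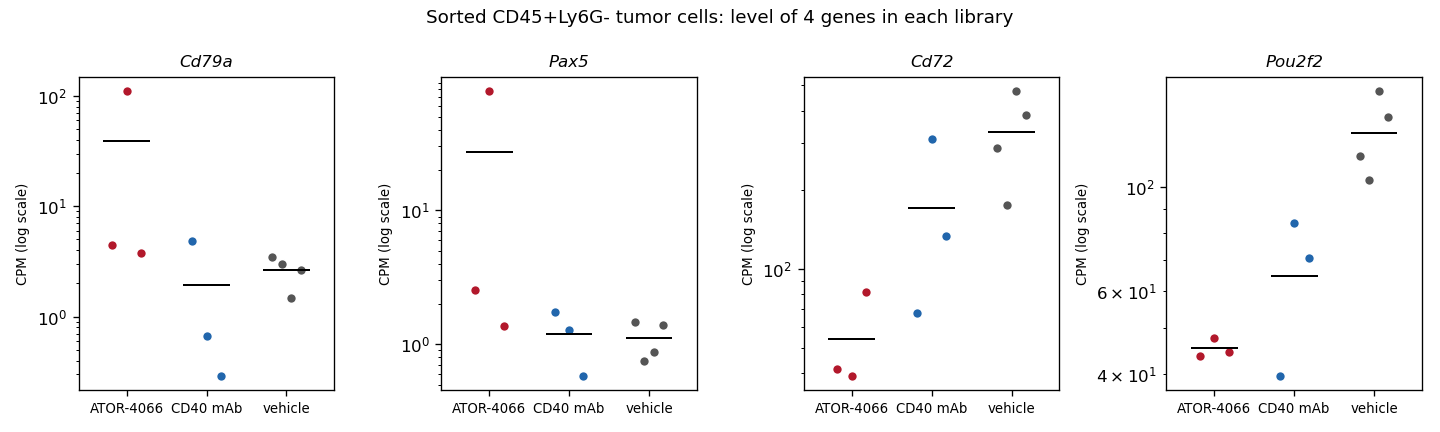
CPM (log axis) of Cd79a, Pax5, Cd72 and Pou2f2 in each library of sorted CD45+Ly6G- tumor cells by treatment; points are libraries and bars group means. Cd79a and Pax5 are high in 1 ATOR-4066 library (109.5 and 77.3 CPM). For Cd72 and Pou2f2 all 3 ATOR-4066 libraries lie below all 4 vehicle libraries, as in 14.1% of all genes tested.

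Scaled to the 4 anchor genes, 0 of 26 genes passed in each of the 3 sorted comparisons by edgeR. At an unadjusted p under 0.05 there were 2 for ATOR-4066 against vehicle, 1 for CD40 mAb against vehicle and 3 between the antibodies. In sorted cells, 0.036% of all genes were higher and 0.162% lower on that scale for ATOR-4066 against vehicle. The shares were 0.078% and 0.03% for CD40 mAb against vehicle, and 0.042% and 0.108% for ATOR-4066 against CD40 mAb. With ATOR-4066 library 9 left out, 1 gene passed against vehicle and 2 against CD40 mAb, where 769 and 672 of all genes did.

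In whole tumor 0 of 31 genes passed in any comparison by edgeR, where 1.32% of 18454 genes did for ATOR-4066 against vehicle, 0% for CD40 mAb against vehicle and 0.0325% between the antibodies. At an unadjusted p under 0.05 the counts were 0, 0 and 0, DESeq2 called 0, 0 and 0, and voom 3, 0 and 0. Cd79a had 0.724, 1.197, 7.14 and 4.17 CPM in ATOR-4066 tumors and 1.03, 0.609, 7.24, 0.865 and 7.12 CPM in CD40 mAb tumors. In vehicle tumors, Cd79a had 25.8, 0.725, 1.16 and 1.02 CPM. Vehicle tumor 1 was highest by far, and the antibody groups each held tumors at about 1 CPM beside tumors at several CPM. Ms4a1 had 0.885, 1.37, 4.91 and 2.47 CPM in ATOR-4066 tumors and 0.642, 0.0369, 4.93, 0.485 and 4.83 CPM in CD40 mAb tumors. In vehicle tumors, Ms4a1 had 15.6, 0.215, 0.359 and 0.403 CPM. Ms4a1 followed the order of Cd79a at the top, with vehicle tumor 1 highest. Cr2 had 0.302, 0.0772, 1.68 and 0.8292 CPM in ATOR-4066 tumors and 0.237, 0.0369, 3.01, 0.317 and 2.46 CPM in CD40 mAb tumors. In vehicle tumors, Cr2 had 8.45, 0.157, 0.239 and 0.0322 CPM. Fcer2a had 0.624, 0.482, 3.52 and 1.72 CPM in ATOR-4066 tumors and 0.607, 0.517, 2.12, 0.612 and 3.40 CPM in CD40 mAb tumors. In vehicle tumors, Fcer2a had 11.7, 0.714, 0.488 and 0.371 CPM. In all 4 genes the groups overlapped, and the intervals were wide: the log2 change of Cd79a was -1.12 (95% interval -3.78 to 1.55) for ATOR-4066 and -1.09 (95% interval -3.58 to 1.40) for CD40 mAb against vehicle.

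The genes of smallest p in whole tumor are given as values. Cd55 had 20.3, 34.0, 8.14 and 9.89 CPM in ATOR-4066 tumors and 35.7, 3.17, 10.7, 10.96 and 25.6 CPM in CD40 mAb tumors. In vehicle tumors, Cd55 had 11.8, 5.64, 2.69 and 6.95 CPM (ATOR-4066 against vehicle, log2 change 1.42, SE 0.68, edgeR adjusted p = 0.217; CD40 mAb against vehicle, log2 change 1.35, SE 0.65, edgeR adjusted p = 0.415), and each antibody group overlapped with vehicle. Ebf1 had 22.4, 23.9, 25.7 and 24.7 CPM in ATOR-4066 tumors and 24.3, 31.3, 34.0, 35.9 and 21.1 CPM in CD40 mAb tumors. In vehicle tumors, Ebf1 had 29.0, 30.7, 32.1 and 27.8 CPM. Every ATOR-4066 tumor was below every vehicle tumor (log2 change -0.31, SE 0.16, edgeR adjusted p = 0.242), 1 of 31 such genes where 14.7% of all genes were. Pou2f2 had 11.97, 13.5, 34.6 and 11.5 CPM in ATOR-4066 tumors and 8.18, 28.3, 30.4, 7.13 and 56.1 CPM in CD40 mAb tumors. In vehicle tumors, Pou2f2 had 43.1, 33.9, 37.0 and 39.8 CPM (log2 change -1.11, SE 0.57, edgeR adjusted p = 0.249). In 3 of 4 ATOR-4066 tumors it was at 11.5 to 13.5 CPM, below all vehicle tumors, and in ATOR-4066 tumor 4, at 34.6 CPM, it was inside the vehicle range. Cd72 had 28.4, 19.7, 237 and 72.1 CPM in ATOR-4066 tumors and 17.99, 156, 136, 31.3 and 132 CPM in CD40 mAb tumors. In vehicle tumors, Cd72 had 157, 151, 149.6 and 173 CPM, and ATOR-4066 tumor 4 was the highest of all. For CD40 mAb against vehicle the next genes by p were Cd37 and Blnk, with log2 changes of 0.93 (95% interval -0.17 to 2.02) and 0.43 (95% interval -0.16 to 1.01), and for ATOR-4066 against CD40 mAb Ebf1, Cxcr5 and Pou2f2, with -0.28 (95% interval -0.60 to 0.04), 1.14 (95% interval -0.87 to 3.14) and -0.54 (95% interval -1.71 to 0.63). Against the anchor genes 0 of 27 passed in each tumor comparison by edgeR, with 1 for ATOR-4066 and 2 for CD40 mAb against vehicle and 0 between the antibodies at an unadjusted p under 0.05. In whole tumor, 0.125% of all genes were higher and 0.0325% lower on that scale for ATOR-4066 against vehicle. The shares were 0.0271% and 0.0108% for CD40 mAb against vehicle, and 0.0271% and 0.00542% for ATOR-4066 against CD40 mAb.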

How the data were processed

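RNA from blood, lymph node, whole tumor and sorted tumor cells was sequenced from stranded mRNA libraries, per the labels' protocols. The authors deposited 1 table of estimated counts, with a row per gene and a column per library. STAR and build GRCm38 are named in the submitters' processing notes, and the annotation used is not given in the sources used here. Cells that were not whole numbers (10.98%) were rounded. Libraries held 30.2 to 138.5 M (M, 1e+06) counts in all.

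The 31 members, the gene lists and the tests were chosen with earlier results of these data known. Within each material, genes were kept by filterByExpr (count minimum 10, total minimum 15), scaled by TMM and fitted over all 3 treatments with the edgeR 4.0.16 quasi-likelihood test in R 4.3.3, with Benjamini-Hochberg adjustment over all genes kept and a threshold of 0.05. Differences of effects between materials were fitted with voomLmFit (limma 3.58.1). DESeq2 1.42.0, other scalings and filters, a replicate block and leaving out each library were alternatives. 2 further scalings of blood were chosen after seeing the data, because the TMM factors differed between treatments. The genes described with values in every library are Cd79a, Ms4a1, Cr2 and Fcer2a in each material, and those of smallest p in each comparison; Btk in blood and Cd72 in tumor were added after their values were seen. Exon lengths and gene positions come from GENCODE vM21 of GRCm38, matched by gene ID for 52029 of 57010 genes. The scripts were tested on simulated data. Within a material, libraries of different treatments with the same number did not deviate together throughout, so the main fits there hold no block.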

Additional observations from a re-analysis of the deposited data

Results flagged for a closer look

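The summed 31 genes, Cd79a, Ms4a1, Cr2 and Fcer2a were examined in each treatment and material with 4 or 5 libraries, 50 sets of values in all, and 10 held a library far from the others. Chance flags about 1 in 20 sets, but the 10 come from only 4 libraries and are not separate cases. In whole tumor, the 31 genes summed to 686.9 CPM in ATOR-4066 tumor 4, against 261.5 to 325.4 CPM in the others of that treatment, and to 669.2 CPM in vehicle tumor 1, against 399.2 to 428.5 CPM. In ATOR-4066 tumor 4, Cd72, which is also known from myeloid cells, was the highest of all tumors, so its sum does not follow B cells alone. Vehicle tumor 1 also stood apart with Cd79a at 25.79 CPM, Ms4a1 at 15.61 CPM, Cr2 at 8.452 CPM and Fcer2a at 11.71 CPM. In lymph node, CD40 mAb node 5 had Fcer2a at 346.1 CPM, where the remaining nodes of that treatment ranged between 184 and 211.4 CPM. In blood, CD40 mAb library 1 stood apart with Cd79a at 69.34 CPM, Cr2 at 13.96 CPM and Fcer2a at 26.49 CPM.

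By a test of the difference itself, the CD40 mAb effect was lower in blood than in lymph node in 15 of 31 genes, where 10.2% of all genes were. It was lower in blood than in whole tumor in 2 of 31, where 3.47% of all genes were. With edgeR and no block these counts were 3 and 6, where 2864 and 2859 of all genes were called in either direction. With the left-out libraries kept in they were 2 and 0, where 2230 and 1198 of all genes were. The main fit called 3061 and 1400. The left-out library labelled tumor ATOR-4066 3 held 6711 CPM of the 31 genes.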

How the results depend on the processing

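Of 341 counts under an alternative, 283 stayed within 1.5 times the main count, 34 were lower and 24 higher. Of 991 values of called genes, 811 stayed called, 180 kept the direction without passing and 0 reversed. For whole tumor, ATOR-4066 against vehicle, voom called 3 genes and a fit of only the 2 groups called 2, against 0, where these fits called 4913 and 3959 of all genes. For sorted cells, ATOR-4066 against vehicle, the count of 5 was 1 without the low-count filter and 2 with only the 2 groups. Of all genes, these 2 fits called 1595 and 1776, against 1977. CD40 mAb against vehicle had 1 with DESeq2, with voom, without the filter and with only the 2 groups, against 0. In that order these fits called 1527, 679, 391 and 732 of all genes, against 182. ATOR-4066 against CD40 mAb had 8 with DESeq2, 0 without the filter and 0 with only the 2 groups, against 1. These fits called 3012, 1101 and 3 of all genes, against 1372, so the fit of only the 2 groups called almost nothing. Against all members as the anchor, sorted ATOR-4066 against vehicle had 2, where 977 of all genes were called. For blood, ATOR-4066 against CD40 mAb, the count of 11 was 20 with DESeq2, 29 with voom, 4 scaled to T cell markers and 2 with only the 2 groups. In that order these fits called 1979, 1975, 1333 and 832 of all genes, against 1593. With haemoglobin genes removed and no scaling factors it was 31, where 9060 of all genes were called. ATOR-4066 against vehicle had 1 with voom and 3 with only the 2 groups, against 0, where 981 and 1062 of all genes were called, against 53. With the left-out libraries kept in, the differences between materials numbered 2 for blood against lymph node and 0 for blood against whole tumor, where 2230 and 1198 of all genes were called. With edgeR and no block they were 3 and 6, and 1 for the ATOR-4066 effect in blood against whole tumor, where 2864, 2859 and 771 of all genes were called. The cause of these moves was not tested.

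Leaving out each library gave 1 to 14 genes for sorted ATOR-4066 against vehicle, 0 to 13 for sorted ATOR-4066 against CD40 mAb, 0 to 1 for sorted CD40 mAb against vehicle, 1 to 30 for blood ATOR-4066 against CD40 mAb and 26 to 31 for blood CD40 mAb against vehicle. Against the anchor it gave 3 to 8 for blood CD40 mAb against vehicle, 0 to 5 for blood ATOR-4066 against CD40 mAb, 0 to 1 for sorted ATOR-4066 against vehicle and 0 to 2 for sorted ATOR-4066 against CD40 mAb. The count of all genes called moved between these fits as well.

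Deviations from the group mean were correlated between libraries of different treatments within a material. With the same number they ran from -0.22 to 0.14 in blood, -0.39 to 0.31 in lymph node, -0.34 to 0.36 in tumor and -0.06 to 0.11 in sorted cells. With different numbers they ran from -0.22 to 0.31, -0.40 to 0.44, -0.41 to 0.43 and -0.18 to 0.19 in the same order. Within a material the numbers are thus not taken to pair libraries. The number as the animal across materials was not examined this way. With a replicate block, the counts were 28 for blood CD40 mAb against vehicle, 0 for blood ATOR-4066 against CD40 mAb, 2 for sorted ATOR-4066 against vehicle and 0 for sorted ATOR-4066 against CD40 mAb. Against the anchor they were 2 for blood CD40 mAb against vehicle and 0 for blood ATOR-4066 against CD40 mAb. Of all genes, the block fits without the anchor called 2 for blood ATOR-4066 against CD40 mAb. They called 1090 for sorted ATOR-4066 against vehicle and 363 for sorted ATOR-4066 against CD40 mAb. With the anchor they called 8954 for blood CD40 mAb against vehicle and 4232 for blood ATOR-4066 against CD40 mAb.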
